A study of Homo sapiens with 4 samples.

Results

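Solute carriers are membrane proteins that move amino acids, sugars, ions, metals, vitamins and metabolites across the cell surface and the membranes of organelles. The genes described here are the solute carrier genes of A549 cells whose FPKM (fragments per exon length and library size) reached 1 or more in either input library. They were chosen by symbol (SLC, a family number, the letter A and a member number) and by those measured FPKM values. SLC7A11 and SLC2A1 were left out by the rule. Of the 272 genes with such a symbol, 151 passed, among 12268 genes that passed the same FPKM limit out of 28283 listed. Of the 151 genes, 140 reached an FPKM of 1 in both libraries, 6 only in the control library and 5 only in the knockdown library.

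RNA-seq and m6A-seq were performed on A549, an established human lung adenocarcinoma line. The control cells carried the lentiviral control vector (shNC) and the knockdown cells a stable short hairpin RNA against YTHDF2 (shY2-2), selected with puromycin. Each kind of cell gave 1 input library, which serves as its RNA-seq, and 1 IP library, made from the RNA fragments that an m6A antibody pulled down, which gives 4 libraries. With 1 library of each kind per group there was no replicate, 1 hairpin was sequenced, and every difference given here compares these libraries and has no test.

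N6-methyladenosine (m6A) is a methyl mark that is added to adenosines of mRNA, mostly within short GGAC-like motifs, and is found most often near stop codons and in 3′ UTRs. YTHDF2 is a cytoplasmic protein that binds m6A and is best known for bringing marked transcripts to decay. Solute carriers of the plasma membrane set what a tumor cell can take up, and the carriers of the SLC25 family link the cytosol to the mitochondrial matrix.

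YTHDF2, the targeted gene, had an input FPKM of 3.56 with the control vector and of 1.02 with the hairpin. A549 identity was compared with markers of epithelial cells. KRT8 had an FPKM of 523 and 322, KRT18 of 388 and 281, CDH1 of 9.99 and 5.28, and EPCAM of 2.02 and 1.20 in shNC and shY2-2, so all 4 epithelial markers were lower in the knockdown library, and their part in the differences described here was not tested. SFTPC and SCGB1A1, markers of differentiated lung epithelium, were listed at no more than 0.133. PTPRC, PECAM1 and DCN, which mark leukocytes, endothelium and fibroblasts, were at no more than 0.259 and COL1A1 reached 0.834 and 1.64. FPKM holds no read counts, so the depth behind a value is unknown and no interval can be given. In a bulk library, fewer cells with a transcript and less of it per cell cannot be told apart.

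The expressed solute carriers covered a wide range of levels. FPKM, which is scaled to gene length, ran from 0.525 to 431 in shNC with a median of 4.59, and from 0.552 to 515 in shY2-2 with a median of 4.12. A group of 5 genes held 52.1% of the summed FPKM of all 151 in shNC and 53.9% in shY2-2. These were SLC7A5, SLC3A2, SLC1A5, SLC25A5 and SLC25A6, and all 5 differed by less than 1.5-fold between the libraries.

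SLC7A5 encodes LAT1, the light chain of the exchanger that brings large neutral amino acids into the cell. It had an FPKM of 431 in shNC and 515 in shY2-2. SLC3A2 encodes CD98, the heavy chain that carries LAT1 to the plasma membrane, and had 99.9 and 113. SLC1A5, the glutamine transporter ASCT2, had 113 and 103. The 2 most abundant mitochondrial carriers were the ADP/ATP exchangers SLC25A5, with 256 and 242, and SLC25A6, with 222 and 249. Their sequences are close to each other, and how reads shared between such copies were assigned is not given in the sources used here. SLC39A7, a zinc transporter of the endoplasmic reticulum, followed with 50.4 and 54.2, and SLC25A3, the mitochondrial phosphate carrier, with 33.4 and 43.9. The order of these genes by FPKM differed between the libraries only within the pairs SLC25A5 and SLC25A6, and SLC1A5 and SLC3A2, and no replicate shows whether the levels in either pair differ. The next genes by mean FPKM were the glutathione carrier SLC25A39 (29.2 and 34.3), the anion exchanger SLC4A2 (28.9 and 31.4), the nucleoside transporter SLC29A1 (25.5 and 37.8), SLC35A4 (26.7 and 29.0) and the oxoglutarate carrier SLC25A11 (24.7 and 29.6).

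**Figure D1:**
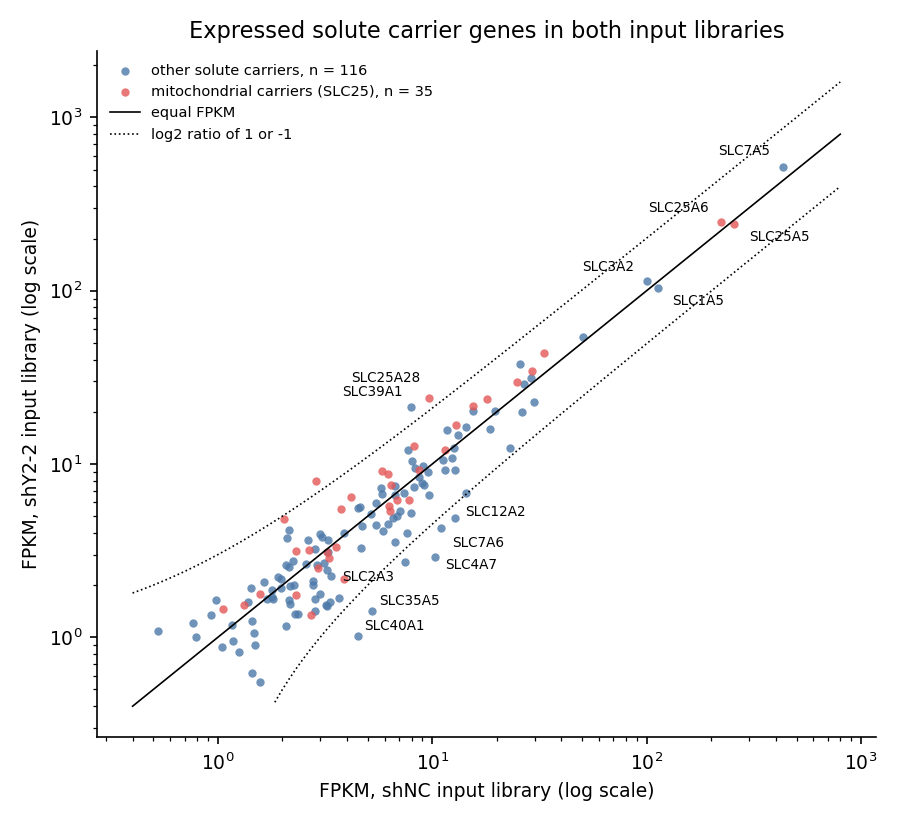
FPKM of the 151 expressed solute carrier genes in the input of shNC cells (x axis, log scale) and of shY2-2 cells (y axis, log scale). Each point is a gene, the mitochondrial SLC25 carriers are in red, the solid line marks equal FPKM and the dotted lines a log2 ratio of 1 or -1 after adding 1 to both values. SLC7A5 stands at the top with 431 and 515, 6 genes lie below the lower dotted line and 3 above the upper one.

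The change of a gene was expressed as log2((FPKM shY2-2 + 1)/(FPKM shNC + 1)), here called the log2 ratio, which understates the change of low genes. Coordinates in parentheses are those of the deposited gene table, on GRCh38. Because both FPKM values also chose the genes, the ratios are a description. The median log2 ratio was -0.04 over the 151 genes and 0.00 over the 12268 genes, and 69 solute carriers lay above 0 and 82 below. A log2 ratio above 1 was found for 3 genes (1.99%), where 0.986% of all 12268 genes lay above 1. A log2 ratio below -1 was found for 6 genes (3.97%), where 2.14% of all genes lay below -1. At the looser limit of 1.5-fold on the same scale, 6 solute carriers (3.97%) were higher and 19 (12.6%) were lower, beside 5.38% and 8.92% of all genes. The 19 include SLC7A2 and SLC9A2, which passed the selection in shNC only. Among the 140 solute carriers at an FPKM of 1 or more in both libraries, 6 were higher and 17 lower. Of all genes at 1 or more in both, 4.79% were higher and 7.82% lower. Past 1.5-fold is meant on this scale wherever it is written of RNA. These shares stand near those of all genes, with a few genes more on the lower side.

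SLC4A7 (ENSG00000033867, chr3:27372721-27484420) had the lowest log2 ratio of the solute carriers. It encodes a sodium bicarbonate cotransporter that loads base into cells, and its FPKM was 10.3 in shNC and 2.92 in shY2-2 (log2 ratio -1.52). SLC12A2 (ENSG00000064651, chr5:128083766-128189688), the sodium-potassium-chloride cotransporter NKCC1, had 12.7 and 4.90 (log2 ratio -1.21). SLC4A7 takes part in the control of intracellular pH and SLC12A2 in that of chloride and cell volume. Both were more than 2-fold lower in the knockdown library.

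SLC40A1 (ENSG00000138449, chr2:189560579-189583758) encodes ferroportin, the only known iron exporter of animal cells. Its FPKM was 4.49 in shNC and 1.02 in shY2-2 (log2 ratio -1.44), so in the knockdown library it stood at the limit of selection. SLC7A6 (ENSG00000103064, chr16:68264516-68301823), a light chain that pairs with CD98 to exchange basic and neutral amino acids, had 11.03 and 4.28 (log2 ratio -1.19). SLC2A3 (ENSG00000059804, chr12:7919230-7936275), the glucose transporter GLUT3, had 7.44 and 2.71 (log2 ratio -1.19). SLC35A5 (ENSG00000138459, chr3:112561709-112585577), a member of the nucleotide sugar transporter family, had 5.26 and 1.42 (log2 ratio -1.37). These 6 genes belong to 5 classes of substrate.

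The next genes on the lower side were again mixed in function. SLC27A2, a very long chain acyl-CoA synthetase of the fatty acid transport family, had an FPKM of 14.3 in shNC and 6.84 in shY2-2 (log2 ratio -0.97). SLC38A1, a sodium-coupled glutamine transporter, had 23.0 and 12.3 (log2 ratio -0.85). SLC7A7, another partner of CD98, had 6.67 and 3.53 (log2 ratio -0.76). Further genes past 1.5-fold were the neutral amino acid exchanger SLC1A4 with 3.68 and 1.69, the proton-coupled amino acid transporter SLC36A1 with 3.22 and 1.52, and the zinc importer SLC39A10 with 7.62 and 3.98. SLC17A5, the sialic acid exporter of lysosomes, had 3.19 and 1.54.

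On the higher side, SLC39A1 (ENSG00000143570, chr1:153959099-153968184) had the highest log2 ratio. It encodes the zinc importer ZIP1 and had an FPKM of 7.92 in shNC and 21.3 in shY2-2 (log2 ratio 1.32). Its exons overlap those of another annotated gene on the same strand, so reads of the overlapping part may have been divided between them. SLC25A28 (ENSG00000155287, chr10:99610522-99620609), mitoferrin-2, which brings iron into mitochondria, had 9.63 and 23.9 (log2 ratio 1.23). Both import a metal, and both were more than 2-fold higher in the knockdown library.

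SLC25A25, a calcium-regulated carrier of ATP and phosphate, had an FPKM of 2.03 in shNC and 4.82 in shY2-2 (log2 ratio 0.94). SLC44A2, a choline transporter-like protein, had 2.14 and 4.17 (log2 ratio 0.72). SLC15A4, a transporter of histidine and peptides in lysosomes, had 2.10 and 3.74 (log2 ratio 0.61). These 3 genes were past 1.5-fold upward and short of a log2 ratio of 1. The next log2 ratios, from 0.58 down to 0.46, were those of the ornithine carrier SLC25A15 (8.18 and 12.7), SLC25A24 (5.81 and 9.17), the zinc transporter SLC39A9 (7.72 and 11.98), the equilibrative nucleoside transporter SLC29A1 (25.5 and 37.8), the peroxisomal carrier SLC25A17 (4.17 and 6.43) and the glycine carrier SLC25A38 (15.4 and 21.6). With a pseudocount of 0.1 in place of 1, SLC25A15, SLC25A24, SLC39A9 and SLC25A17 had 0.63, 0.65, 0.63 and 0.61, past 1.5-fold.

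At the edge of the selection, the genes with the lowest of the higher FPKM values were SLC22A17 (0.789 and 1.01), SLC27A5 (1.04 and 0.881) and SLC31A2 (0.525 and 1.09). The nearest genes outside were SLC25A45 (0.950 and 0.984), SLC6A17 (0.979 and 0.867) and SLC1A1 (0.899 and 0.529).

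The genes were then grouped by family number into 10 classes by the substrate the family is best known for. A family may hold members with other substrates. Mitochondrial carriers, the SLC25 family, formed the largest class with 35 genes and the highest median log2 ratio, 0.19, with 23 genes above 0 and 12 below. In this class 3 genes were higher and 2 lower past 1.5-fold, the latter being SLC25A40 with an FPKM of 2.73 in shNC and 1.35 in shY2-2 and SLC25A36, a pyrimidine nucleotide carrier, with 3.88 and 2.17. The remaining 116 solute carriers had a median of -0.09, with 46 above 0 and 70 below, and 3 were higher and 17 lower past 1.5-fold.

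Metal transporters (23 genes) had the lowest class median, -0.25, with 7 genes above 0 and 16 below. The class held both the highest log2 ratio of all solute carriers, that of SLC39A1, and one of the lowest, that of SLC40A1. All 5 genes of the SLC30 family, which moves zinc out of the cytosol, lay below 0 with a median of -0.26, and none was past 1.5-fold on the scale with 1 added. SLC30A9 came nearest, with an FPKM of 7.97 in shNC and 5.21 in shY2-2 (log2 ratio -0.53, or -0.60 with a pseudocount of 0.1). Of the 11 genes of the SLC39 family, which moves zinc into the cytosol, 5 lay above 0 and 6 below with a median of -0.15.

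Amino acid and peptide transporters (23 genes) had a median of -0.13, with 8 genes above 0 and 15 below, 6 lower past 1.5-fold and 1 higher. The 5 SLC7 members differed among themselves. SLC7A5 had a log2 ratio of 0.26 and SLC7A1, the cationic amino acid transporter, of 0.04 with an FPKM of 19.6 and 20.2, whereas SLC7A6, SLC7A7 and SLC7A2 were lower, the last with 1.56 and 0.552. SLC7A2 is among the 6 lower genes and passed the selection in shNC only, the library where it was higher. SLC38A2, an amino acid transporter that cells induce on starvation, had 30.0 and 22.7 (log2 ratio -0.39). SLC7A5, SLC3A2 and SLC1A5, the abundant genes of this class, lay between -0.13 and 0.26.

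Transporters of ions and protons (18 genes) had a median of -0.11, with 7 above 0, none higher past 1.5-fold and 3 lower. The third of these beside SLC4A7 and SLC12A2 was the sodium-proton exchanger SLC9A2, with an FPKM of 1.44 and 0.625. It passed the selection in shNC only, the library where it was higher. Of the 5 SLC9 exchangers, 4 lay below 0. The chloride bicarbonate exchanger SLC4A2 was the most abundant of the class and had a log2 ratio of 0.11. The phosphate importer SLC20A1 had 12.7 and 9.18, and its paralog SLC20A2 had 4.59 and 5.63.

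The other classes had medians close to that of all genes. Sugar transporter families (12 genes) had a median of 0.05, with 6 genes on each side. Of these, SLC2A3 was the only gene past 1.5-fold. Families of vitamin, choline and haem transporters (12 genes) had a median of 0.12, and SLC44A2 was the only one past 1.5-fold. The vitamin C transporter SLC23A2 was the most abundant of them with 18.5 and 15.96, and SLC23A1 had the lowest log2 ratio with 2.37 and 1.37.

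Organic acid transporters (8 genes) had a median of -0.13. The monocarboxylate transporters SLC16A1 and SLC16A3, which move lactate, differed by less than 1.5-fold, with FPKM of 11.7 and 15.7 for the first and 4.70 and 4.36 for the second. Nucleoside and nucleotide sugar transporters (8 genes) had a median of 0.08, organic solute transporters (9 genes) of -0.05 and lipid transporters (3 genes) of -0.12. Among organic solute transporters the organic cation transporter SLC22A3 was most abundant, with 12.6 and 12.4.

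**Figure D2:**
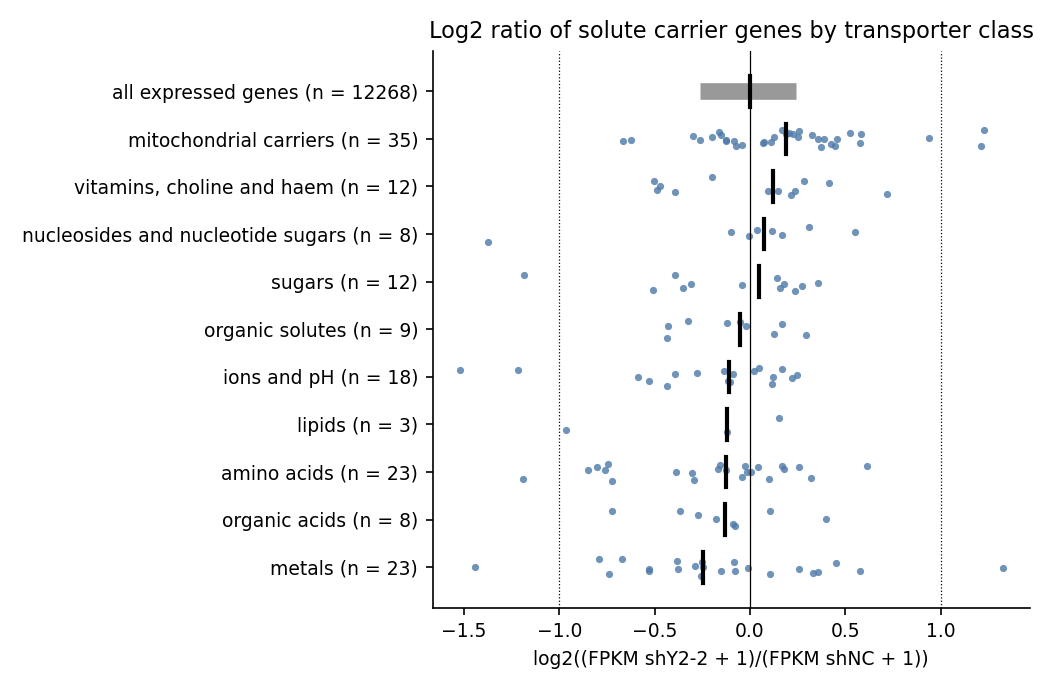
Log2 ratio of the 151 expressed solute carrier genes by class of substrate (y axis), computed as log2((FPKM shY2-2 + 1)/(FPKM shNC + 1)) (x axis). Each point is a gene, with vertical scatter only for display, short black bars are class medians, the grey bar spans the quartiles of all 12268 genes and the dotted lines mark -1 and 1. Class medians run from -0.25 for metal transporters to 0.19 for mitochondrial carriers and all lie within the quartiles of all genes.

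Other transporters of the same cells were set beside them. The 22 ABC transporters had a median of -0.04, the same as the solute carriers, with none past a log2 ratio of 1 in either direction. The 22 P-type ATPases, counted with their accessory subunits, had a median of -0.26, with 4 above 0 and 18 below. Of these, 1 had a log2 ratio above 1 and 2 had one below -1. The 20 solute carriers with another subfamily letter had a median of -0.07, with none above 1 and 2 below -1, and the 3 organic anion transporters of the SLCO family had a median of -0.27.

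Features of the transcripts moved with the ratios. Each gene was matched to its canonical GENCODE transcript, which was found for all 151. Across these genes the Spearman correlation of the log2 ratio with GC content was 0.29, with spliced length -0.36 and with 3′ UTR length -0.26. Over all genes with a value, the same correlations were 0.28, -0.25 and -0.19. The genes share their 2 libraries, so these are descriptions without a test.

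Of the 49 solute carriers with a GC content under 45%, none was higher past 1.5-fold and 13 were lower, with a median log2 ratio of -0.26. Of the 62 with 55% or over, 5 were higher and none was lower, with a median of 0.11. Over all genes the medians were -0.14 and 0.11, with 3.07% higher and 13.3% lower past 1.5-fold under 45% GC and 7.59% and 5.62% at 55% or over. The 19 genes lower past 1.5-fold had a median GC content of 41.4% and a median 3′ UTR of 2843 nt, and the 6 higher genes had 56.3% and 995 nt. SLC4A7, at 37.1% GC with a 3′ UTR of 4041 nt, and SLC25A28, at 59.3% with 327 nt, stand near the ends. The mitochondrial carriers had a median GC content of 47.3% and the other solute carriers 52.5%, so the class with the higher ratios was the one with less GC. The median spliced length was 2640 nt in the former and 3383 nt in the latter. The part of base composition and length in these ratios was not tested.

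**Figure D3:**
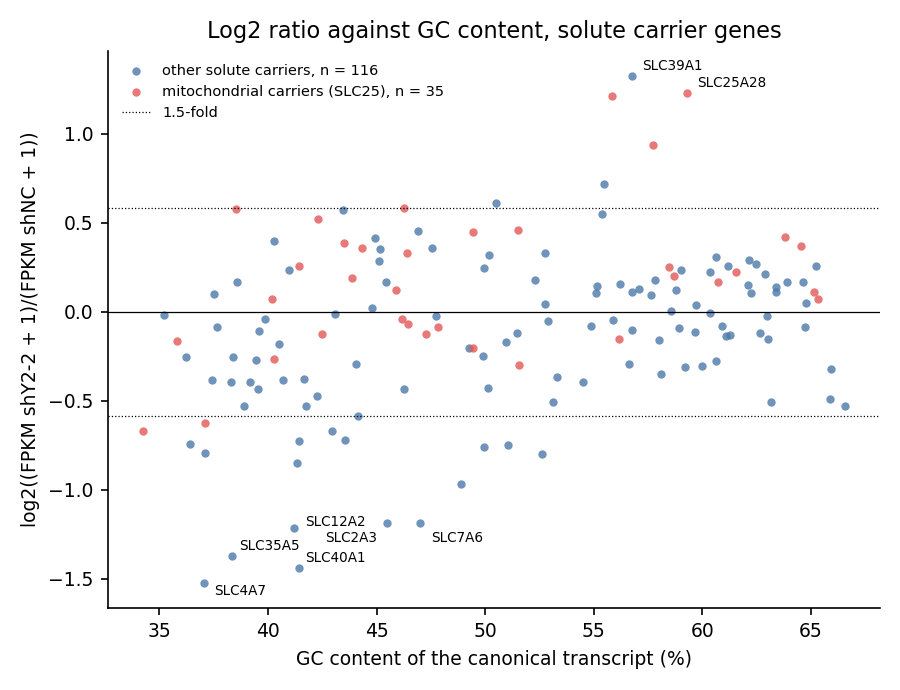
GC content of the canonical transcript in percent (x axis) against the log2 ratio (y axis) for the 151 expressed solute carrier genes. Each point is a gene, the mitochondrial SLC25 carriers are in red and the dotted lines mark 1.5-fold. No gene with 55% GC or over lies under the lower dotted line, and no gene under 45% lies above the upper one.

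The m6A peaks of the solute carriers were those that carry the same gene identifier in the peak lists. A peak is a stretch of exons in which IP reads exceed input reads, and its fold enrichment is the ratio of IP over input. The shNC list held 383 peaks in 133 of the 151 genes (88.1%), beside 81.2% of all 12268 genes. The shY2-2 list held 316 peaks in 126 genes (83.4%), beside 78.4% of all genes. In both lists a peak was found for 119 solute carriers (78.8%, against 72.7% of all genes), for 14 only in shNC (9.27%), for 7 only in shY2-2 (4.64%) and for 11 in neither (7.28%). The shares of all genes were 8.58%, 5.70% and 13.1%, so the counts in 1 list only stood near the background. Some peaks overlapped another peak of the same gene, and the 383 and 316 peaks cover 364 and 301 separate stretches. All listed peaks were counted here, with no limit on FDR. At an FDR of at most 0.05, 107 solute carriers had a peak in shNC, 91 in shY2-2 and 83 in both. The share of all genes at that limit was not counted.

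Calling a peak depends on how many reads a gene has, so genes were compared at like FPKM. With a mean FPKM under 5, 80.3% of 76 solute carriers had a peak in shNC and 73.7% in shY2-2, beside 70.7% and 67.8% of all genes. From 5 to 20, the shares of 60 solute carriers were 95.0% and 91.7%, beside 91.5% and 87.8%. All 15 solute carriers at 20 or more had a peak in both lists, beside 91.8% and 90.7% of all genes. In each of these 6 comparisons the share of the solute carriers was the higher one. The solute carriers and all genes were not alike in their transcripts. A 3′ UTR length was available for all 151 solute carriers and for 86.9% of all 12268 genes. The median spliced length was 3330 nt in the solute carriers and 2912 nt in all genes. The part of these features in the shares was not tested.

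**Figure D4:**
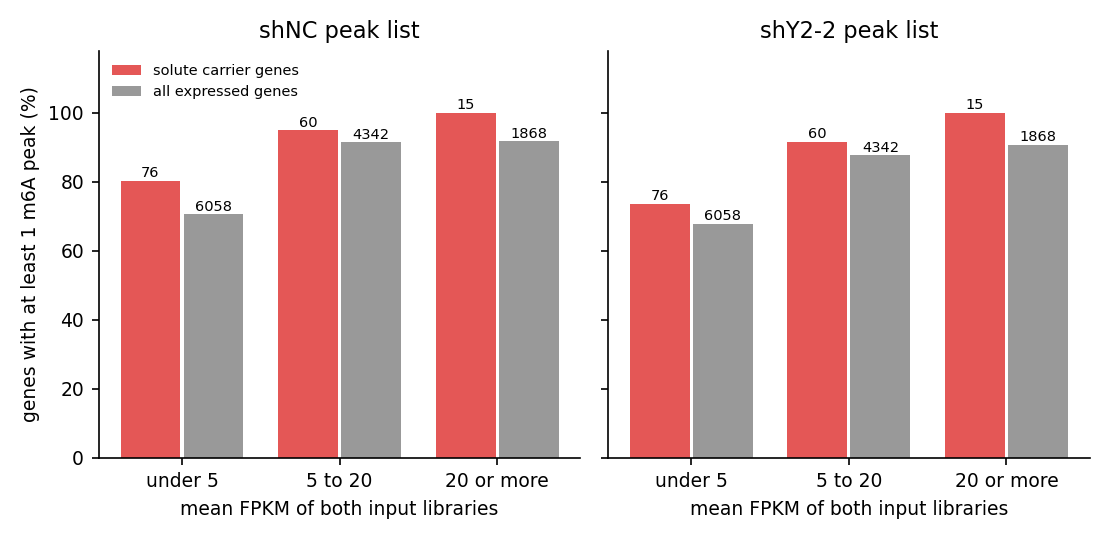
Percent of genes with at least 1 m6A peak (y axis) by mean FPKM of both input libraries (x axis), in the shNC list (left) and the shY2-2 list (right). Red bars are expressed solute carrier genes, grey bars all 12268 genes, and numbers above the bars give the genes in each. The red bars are higher at each level, from 80.3% against 70.7% under an FPKM of 5 in shNC to 100% against 90.7% at 20 or more in shY2-2.

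The 11 solute carriers without a peak were of low level, with a median of 1.82 for the mean FPKM, and 6 of them were amino acid transporters. By class, the mitochondrial carriers had 81 peaks in each list. The metal transporters had 66 peaks in shNC and 49 in shY2-2, the amino acid transporters 58 and 45, and the ion transporters 52 and 44. The 5 zinc exporters of the SLC30 family had 15 peaks in shNC and 5 in shY2-2, while the 11 members of SLC39 had 34 in each list. Over all 12268 genes the peaks were 27866 and 23813. The summed FPKM was 37.3 and 29.9 for SLC30 and 134 and 148 for SLC39. The part of read number in these peak counts was not tested.

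Of the solute carriers, SLC4A2 had the most peaks over both lists, 9 in shNC and 8 in shY2-2, and 5 genes had 9 in shNC. SLC25A12, the aspartate glutamate carrier, had 9 and 7, the folate transporter SLC19A1 had 9 and 6, the multivitamin transporter SLC5A6 had 9 and 5, and the zinc and iron importer SLC39A14 had 9 and 4. SLC16A3 had 7 and 6, SLC38A10 had 6 and 7, and SLC20A1 had 6 in each. None of these 8 genes differed by 1.5-fold in FPKM.

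More peaks were listed in shNC than in shY2-2 for 66 solute carriers (43.7%), fewer for 38 (25.2%) and as many for 47 (31.1%), beside 38.3%, 23.4% and 38.3% of all genes. A total of 11 genes had at least 2 peaks in one list and none in the other. The same count was not made over all genes, so it has no background beside it. Of these, 8 had them in shNC (SLC30A9, SLC30A7, SLC25A36, SLC25A40, SLC25A33, SLC16A6, SLC9A2 and SLC44A3) and 3 in shY2-2 (SLC22A18, SLC25A46 and SLC39A4). SLC22A18 had 4 peaks in shY2-2, with fold enrichments from 1.82 to 8.09, of which only the one in the 3′ UTR had an FDR under 0.05 (0.0186). Over all genes, too, fewer peaks were listed in shY2-2, 27344 against 31057 in shNC.

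Most peaks of the solute carriers lay in 3′ UTRs by the annotation of the lists, 67.4% in shNC and 64.2% in shY2-2, beside 59.1% and 59.5% of all peaks. The 5′ UTRs held 16.4% and 16.8%, beside 15.5% and 15.9%, and other exons 16.2% and 19.0%, beside 25.4% and 24.6%. The median fold enrichment was 2.12 in shNC and 2.09 in shY2-2, where all peaks had 2.17 and 2.26. An FDR of at most 0.05 was reached by 223 and 169 of the peaks. GGAC, searched on the transcribed strand of the spliced peaks, was present in 60.3% of the solute carrier peaks in shNC and 60.1% in shY2-2, beside 61.0% and 60.6% of all peaks. GGACT, a part of the GGAC matches, was present in 31.3% and 29.4%, beside 28.7% and 29.2%.

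Among the highest fold enrichments at an FDR of at most 0.05 was that of SLC12A9, whose 3′ UTR peak had 35.1 in shNC and met a shY2-2 peak of 15.4. SLC17A5 and SLC25A28 both had a peak of 17.5 in shNC. The sodium-proton exchanger SLC9A8 had a 3′ UTR peak of 15.3 in shNC and 17.3 in shY2-2, SLC25A16 had a peak of 16.2 in shY2-2, and SLC12A4 and SLC19A3 had peaks of 15.0 there. The SLC12A4 peak is labelled 5′ UTR in the list but crosses the 3′ end of the deposited gene. SLC12A4 shares exon sequence with LCAT, and whether the peak belongs to LCAT was not tested. Of these 7 genes, SLC25A28 alone had an FPKM above 5 in either library.

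Peaks of both lists were compared and counted as met where their exons overlapped by at least 1 base on 1 strand. Of the 383 shNC peaks, 55.4% met a shY2-2 peak, beside 55.3% of all shNC peaks. Of the 316 shY2-2 peaks, 69.0% met a shNC peak, beside 64.7%. In 97 genes 174 peaks met exactly 1 peak of the other list, and of these pairs 63 had the higher fold enrichment in shY2-2 and 107 in shNC. The share higher in shY2-2 was 36.2%, beside 43.1% of 12369 such pairs over all genes. Past 2-fold, 5 pairs (2.87%) were higher in shY2-2 and 8 (4.598%) lower, beside 4.39% and 5.45% of all pairs.

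The pair that differed most was in the 3′ UTR of SLC9A7, an endosomal sodium-proton exchanger, with a fold enrichment of 13.7 in shNC and 2.89 in shY2-2. A 3′ UTR peak of SLC25A3 had 11.4 and 2.60. In the other direction, SLC25A16 had 3.82 in shNC and 16.2 in shY2-2, and SLC7A1 had 2.29 and 6.04. In each of these 4 pairs the weaker peak had an FDR above 0.05, and the FPKM of the 4 genes differed by less than 1.5-fold.

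**Figure D5:**
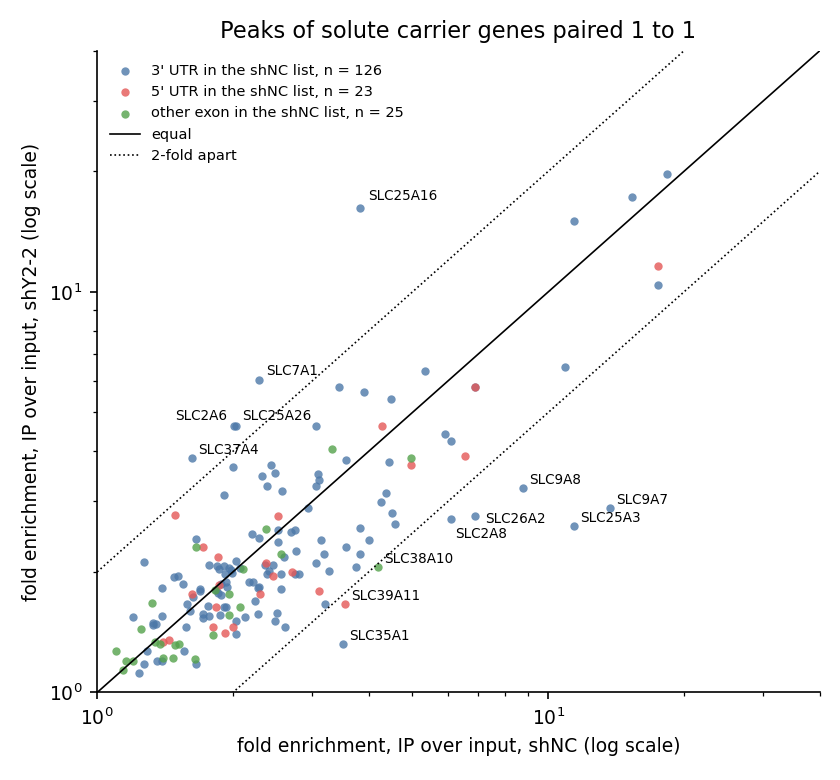
Fold enrichment, IP over input, of the 174 peaks of solute carrier genes that met exactly 1 peak of the other list, in shNC (x axis, log scale) and shY2-2 (y axis, log scale). Each point is a pair, colored by the location of the shNC peak, the solid line marks equal values and the dotted lines 2-fold. A total of 63 pairs lie above the solid line and 107 below, with SLC25A16 (3.82 and 16.2) and SLC9A7 (13.7 and 2.89) farthest from it.

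The presence of peaks was set beside the log2 ratio of the RNA. The 119 solute carriers with a peak in both lists had a median log2 ratio of 0.01, and the 11 without a peak had -0.09. The 14 with a peak only in shNC had a median of -0.52, 12 of them lay below 0 and 6 were lower past 1.5-fold. Among the 6 was SLC9A2, which passed the selection in shNC only. Over all genes with a peak only in shNC the median was -0.08 and 11.7% were lower past 1.5-fold. The 7 with a peak only in shY2-2 had a median of 0.07 and none was past 1.5-fold. Over all genes with a peak only in shY2-2 the median was -0.04, with 5.15% higher and 10.7% lower past 1.5-fold.

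Of the 6 genes with a log2 ratio below -1, SLC4A7, SLC40A1 and SLC7A6 had 1 peak each in shNC and none in shY2-2. Their shNC peaks had fold enrichments of 1.53, 2.14 and 3.31 at FDR values of 0.279, 0.202 and 0.114. SLC35A5 had 2 peaks in shNC and 1 in shY2-2, and none of them met. SLC12A2 had 4 and 1, and SLC2A3 had 6 and 2. In SLC2A3 the peak at the 5′ end had a fold enrichment of 3.05 in shNC and 9.25 in shY2-2, and a second peak in the 3′ UTR class had 2.73 and 2.11. None of the 6 genes had more peaks in shY2-2.

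Among the 19 genes lower past 1.5-fold, 41 peaks in shNC stood against 21 in shY2-2, 12 genes had more peaks in shNC and 2 had more in shY2-2. The 6 genes higher past 1.5-fold had 13 and 19 peaks, and 4 of them had more in shY2-2. The 126 genes within 1.5-fold had 329 and 276. Over all genes the lower group had 2355 and 1767 peaks, the higher group 1165 and 1103, and the group within 1.5-fold 24346 and 20943. Of all 1094 lower genes, 474 had more peaks in shNC and 224 had more in shY2-2. Of all 660 higher genes, 180 had more in shNC and 149 had more in shY2-2, unlike the 6 higher solute carriers. The input reads that give the FPKM also enter the calling of peaks, and the part of read number in these counts was not tested.

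Genes with a log2 ratio above 1 kept peaks in both libraries. SLC25A28 had a peak at its 5′ end with a fold enrichment of 17.5 in shNC and 11.6 in shY2-2 and another at its 3′ end with 2.75 and 2.55. SLC39A1 had weak peaks in its 3′ UTR, of 1.33 and 1.27 in shNC and of 1.47 and 1.18 in shY2-2, and 2 further peaks in shY2-2 with FDR values of 0.558 and 0.337. By contrast, both mitochondrial carriers that were lower past 1.5-fold had peaks in shNC only. SLC25A40 had peaks of 5.09 and 6.87 at FDR values of 0.0282 and 0.272. SLC25A36 had peaks of 2.33 and 1.60 at FDR values of 0.00912 and 0.00603.

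For 12 of the genes with the highest and lowest ratios, 21 bases of the GRCh38 reference within their peaks are given. They had overlapping peaks in both lists and a GGAC in the exonic part common to both. Genes without a GGAC there were passed over, so each window holds the motif by choice. Each runs 5′ to 3′ on the strand of the gene around the GGACT, or else the GGAC, nearest to the middle of the exonic part common to both peaks, and capitals mark that motif. A match is a description, and antibody peaks do not resolve single bases. The first 4 are of genes that were lower in shY2-2 and the other 8 of genes that were higher. The window of SLC2A3 joins 2 exons, so its coordinates span an intron.
SLC12A2 (chr5:128186560-128186580, + strand): ctatctaaGGACctaccacca
SLC2A3 (chr12:7933901-7936038, - strand): agcgatggGGACacagaaggt
SLC27A2 (chr15:50236134-50236154, + strand): aactgaatGGACagccacttg
SLC7A7 (chr14:22773398-22773418, - strand): tttaaaggGGACaatgaaggt
SLC39A1 (chr1:153959309-153959329, - strand): ggggacatGGACatggtgtcc
SLC25A28 (chr10:99620237-99620257, - strand): gcgctgctGGACgggtggctg
SLC25A25 (chr9:128108717-128108737, + strand): tccttttgGGACTggaggcag
SLC44A2 (chr19:10643875-10643895, + strand): tttaacctGGACatgcattaa
SLC15A4 (chr12:128799307-128799327, - strand): tgggttctGGACTgctggcac
SLC39A9 (chr14:69387024-69387044, + strand): tgatagagGGACTgttgggat
SLC29A1 (chr6:44233537-44233557, + strand): ggacagaaGGACTgcctgcct
SLC25A38 (chr3:39397061-39397081, + strand): ggagaacgGGACagtggcttt

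In the canonical transcripts, the motif of SLC12A2 lies in the coding part of its last exon, exon 27 of 27, and the motif of SLC15A4 in the coding part of exon 7 of 8. The motifs of SLC25A28 and SLC2A3 lie in the coding part of exon 1, of 4 and 10 exons, within peaks that the lists place in the 5′ UTR. In the 3′ UTR, the motif of SLC29A1 lies 19 nt after the stop codon, that of SLC27A2 48 nt, of SLC7A7 202 nt, of SLC44A2 500 nt, of SLC25A38 551 nt, of SLC39A1 779 nt and of SLC25A25 1283 nt. All 7 are in the last exon. The window of SLC39A9 lies outside its canonical transcript and upstream of the deposited start of the gene, chr14:69398015. Whether it belongs to another transcript of the locus or to a neighboring gene was not tested.

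The peaks around these motifs had the following enrichments. On the lower side, SLC7A7 had 4.47 in shNC and 5.40 in shY2-2, SLC12A2 had 1.48 and 1.94, and SLC27A2 had 1.87 and 1.56. On the higher side, SLC39A9 had 4.96 and 3.69, SLC25A38 had 4.36 and 3.14, and SLC25A25 had 3.38 and 2.39. SLC44A2 had 2.92 and 4.34, SLC15A4 had 2.56 and 1.97, and SLC29A1 had 1.99 in both lists. The enrichment was thus lower in shY2-2 for SLC27A2 and 5 of these genes with higher RNA, counted with SLC25A28. The 5 include SLC39A9, whose window lies outside the deposited gene. The enrichment was higher in shY2-2 for SLC7A7, SLC12A2, SLC2A3, SLC44A2 and SLC39A1.

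Exon sequence on the same strand was shared with another annotated gene by 20 of the 151 solute carriers. Among the genes named above these include SLC39A1, SLC12A4, SLC4A2, SLC16A3, SLC25A3 and SLC25A15, and their values may hold reads of the neighbor. The paper describes the libraries as strand-specific, made by a dUTP method. Whether reads were then counted by strand is not given in the sources used here, so genes with an antisense neighbor may carry the same limit.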

How the data were processed

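RNA-seq and m6A-seq were analysed for 4 libraries of A549 cells, 1 input and 1 IP library for each of shNC and shY2-2. The authors trimmed reads with fastp, aligned them with HISAT2 (GRCh38) and used StringTie on the input libraries for the deposited FPKM of each gene. The authors called peaks with exomePeak on IP against input in each condition and annotated them with ChIPseeker. The deposited p-value, the deposited scores of p-value and FDR on a log10 scale and the deposited fold enrichment, a ratio, are the authors' values. Tool versions and the annotation release are not given in the sources used here, and depth is unknown.

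The log2 ratio used a pseudocount of 1 and was taken over 12268 genes that reached an FPKM of 1 in either input library. The median log2 ratio of the 11153 genes at 1 or more in both was 0.01, and no scaling was added. Each FPKM column was matched to its sample. Peaks with the same blocks in 1 list were counted once, and peaks of both lists met when exonic blocks on the same strand overlapped by at least 1 base. Transcript features came from GENCODE release 44, and peak sequences were read from GRCh38.

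Members and lists were chosen with earlier results of these data known. The genes named are those of the highest FPKM, the highest and lowest log2 ratio overall and by class, the most peaks, peaks in 1 list only, the highest fold enrichment and the edge of the selection. SLC7A1, SLC7A2, SLC38A2, SLC9A2, SLC9A7, SLC19A3, SLC39A4 and SLC44A3 were named after their values were seen. Values of 2 genes that the rule names are not reported here, though they are in the counts. Other pseudocounts, FPKM limits and peak limits were tried. Steps were tested on simulated data. Sequences were read with pysam 0.24.0, values computed in Python 3.11.15 (pandas 2.3.3, SciPy 1.17.1, NumPy 2.4.6) and figures drawn with matplotlib 3.10.9.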

Additional observations from a re-analysis of the deposited data

How the results depend on the processing

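The libraries have no replicate, so none could be left out. No paired analysis was possible because each condition has 1 library of each kind and the results come from no test. With a pseudocount of 0.1, 13 solute carriers had a log2 ratio below -1 and 13 were higher past 1.5-fold, and SLC27A2, SLC1A4, SLC36A1, SLC17A5 and SLC25A25 passed a size of 1. With a pseudocount of 5, 1 gene lay above 1 and 0 lay below -1, and 3 were higher and 8 lower past 1.5-fold, since a larger pseudocount shrinks each ratio. With an FPKM limit of 5 in either library (78 genes), 3 lay above 1 and 5 below -1, the median log2 ratio was 0.02 in place of -0.04, 3 were higher and 9 lower past 1.5-fold, and 75, 73 and 70 had a peak in shNC, in shY2-2 and in both. With peaks at an FDR of at most 0.001, 72, 61 and 46 of the 151 genes had a peak in shNC, in shY2-2 and in both, and with a fold enrichment of at least 4 the numbers were 47, 46 and 22. At an FDR of at most 0.05 in both lists, 75.7% of shY2-2 peaks met a shNC peak, and at 0.001, 62.4% of shNC peaks met a shY2-2 peak. The share in 3′ UTRs was 72.6% in shNC at an FDR of at most 0.001, with a median fold enrichment of 2.45, and in shY2-2 it was 72.8% at 0.05 and 75.5% at 0.001. Peaks at an FDR of at most 0.05 were found in 107, 91 and 83 genes in shNC, in shY2-2 and in both. The log2 ratios of the 69 genes named by rule and recomputed kept their sign with a pseudocount of 0.1 and after centring on the median of all genes. Without the 20 genes that share exon sequence, a choice made after seeing the data, 2 genes lay above 1 and 6 below -1. The counts and shares at these other settings were made for the solute carriers only. No share of all genes stands beside them, so they do not show how the solute carriers compare with all genes there.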
